A study of Mus musculus with 6 samples.

Results

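Cells that divide switch on genes in waves, and 38 such genes of the cell cycle are described here in mouse mammary tumours after mild magnetic hyperthermia. The list was set by gene symbol, with earlier results of these data known. It holds 17 genes of DNA replication and 21 genes of mitosis, out of 27933 genes in the deposited matrices, each symbol counted once. All 38 were found in the 6 count matrices. The 38 genes were read in every library and in every cell class, over barcodes with 200 or more detected genes.

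The tumours were 4T1 tumours, grown from a mouse mammary carcinoma cell line in Balb/c mice, and their single cells were profiled by Drop-seq. In this method cells are caught in droplets with barcoded beads, and each captured RNA molecule is counted once by its molecular identifier (UMI). The 3 FVIO-MHT libraries came from tumours given ferrimagnetic vortex iron oxide nanorings (FVIO) at 0.1 mg per cm3 of tumour and an alternating magnetic field of 365 kHz for 10 min, which is the mild magnetic hyperthermia (MHT). The 3 PBS libraries came from tumours given phosphate-buffered saline, and both groups were taken 24 hours after treatment. The labels do not say whether PBS tumours also met the field, or whether the 3 libraries of a group came from separate mice, so a p-value measures the spread between these libraries.

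The replication genes are transcribed around the entry into S phase, largely under E2F transcription factors, and supply the machinery that copies DNA. Among them are the MCM helicase subunits, their loaders Cdc6 and Cdt1, the sliding clamp Pcna, and the enzymes that make deoxynucleotides. The mitotic genes are transcribed later, from late S phase to mitosis, under the MuvB complex with B-Myb and FoxM1, and supply the cyclins, kinases, motors and kinetochore proteins of cell division. Tumour cells in culture cycle fast, whereas mature neutrophils have left the cell cycle.

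The promoters of the lists differ in the motifs they hold, and a few are shown here because the lists are kept apart throughout. Promoter windows of 300 bases, from 250 bases before to 50 bases after the annotated start, were taken from RefSeq (GRCm38.p6), which held 32 of the 38 genes. Those not held were Mcm4, Gins2, Ccne2, Ccna2, Aurkb and Stmn1. The 3 replication promoters below are those with an E2F motif whose genes had the most UMIs: Mcm6 at chr1:128359656-128359955 on the minus strand, Mcm3 at chr1:20820263-20820562 on the minus strand and Mcm7 at chr5:138171834-138172133 on the minus strand. The 3 mitotic promoters are those with a cell cycle homology region (CHR) whose genes had the most UMIs: Hmgb2 at chr8:57511593-57511892 on the plus strand, Top2a at chr11:99024140-99024439 on the minus strand and Cenpf at chr1:189688037-189688336 on the minus strand. Capitals mark the E2F motif in the first 3 and the CHR in the last 3, on either strand, and overlapping matches run together.
Mcm6: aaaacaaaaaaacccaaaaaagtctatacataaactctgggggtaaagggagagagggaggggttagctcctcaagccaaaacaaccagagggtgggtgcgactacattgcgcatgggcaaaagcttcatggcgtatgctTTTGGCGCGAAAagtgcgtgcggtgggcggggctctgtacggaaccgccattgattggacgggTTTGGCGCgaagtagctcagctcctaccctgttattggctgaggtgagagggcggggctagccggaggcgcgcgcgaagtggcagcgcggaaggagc
Mcm3: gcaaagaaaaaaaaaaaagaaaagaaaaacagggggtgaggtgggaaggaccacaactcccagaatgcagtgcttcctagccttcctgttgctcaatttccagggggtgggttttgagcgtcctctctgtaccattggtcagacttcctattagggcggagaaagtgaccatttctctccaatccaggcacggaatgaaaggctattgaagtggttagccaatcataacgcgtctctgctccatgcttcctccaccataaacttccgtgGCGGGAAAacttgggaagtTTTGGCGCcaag
Mcm7: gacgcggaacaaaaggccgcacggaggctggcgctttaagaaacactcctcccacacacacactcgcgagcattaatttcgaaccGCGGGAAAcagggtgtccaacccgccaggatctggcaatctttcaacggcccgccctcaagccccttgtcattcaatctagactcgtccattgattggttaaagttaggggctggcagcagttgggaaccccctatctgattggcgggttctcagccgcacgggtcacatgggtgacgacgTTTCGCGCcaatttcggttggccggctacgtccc
Hmgb2: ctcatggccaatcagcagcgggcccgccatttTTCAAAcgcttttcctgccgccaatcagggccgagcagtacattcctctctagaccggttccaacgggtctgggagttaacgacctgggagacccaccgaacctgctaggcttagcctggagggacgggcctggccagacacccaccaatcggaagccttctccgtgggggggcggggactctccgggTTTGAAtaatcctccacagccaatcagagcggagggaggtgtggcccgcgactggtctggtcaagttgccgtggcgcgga
Top2a: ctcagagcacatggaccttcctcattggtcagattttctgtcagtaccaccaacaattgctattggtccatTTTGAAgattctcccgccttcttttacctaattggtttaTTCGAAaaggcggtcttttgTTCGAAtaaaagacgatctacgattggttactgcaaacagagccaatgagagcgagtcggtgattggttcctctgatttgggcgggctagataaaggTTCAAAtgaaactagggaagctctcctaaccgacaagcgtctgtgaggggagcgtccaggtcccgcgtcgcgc
Cenpf: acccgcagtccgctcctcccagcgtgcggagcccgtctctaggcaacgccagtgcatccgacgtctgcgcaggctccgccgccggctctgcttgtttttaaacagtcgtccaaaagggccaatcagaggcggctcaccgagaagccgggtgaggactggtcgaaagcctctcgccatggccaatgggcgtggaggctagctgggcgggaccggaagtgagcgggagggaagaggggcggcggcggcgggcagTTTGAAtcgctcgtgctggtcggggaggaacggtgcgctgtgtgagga

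The CHR, searched as TTTGAA or TTCGAA on both strands, was present in 15 of 18 mitotic promoters (83.3%) and in 2 of 14 replication promoters (14.3%), while 21.7% of 27025 gene promoters of the same length held it. The mitotic promoters without a match were those of Ccnb1, Birc5 and Cenpe. The E2F motif, searched as TTTCCCGC, TTTCGCGC, TTTGCCGC or TTTGGCGC on both strands, was present in 7 of 14 replication promoters (50%) and in 2 of 18 mitotic promoters (11.1%), against 2.60% of all promoters. CCAAT boxes, read on both strands, were in 17 of 18 mitotic promoters (94.4%), 9 of 14 replication promoters (64.3%) and 41.1% of all promoters. These matches describe the letters of the windows, and binding was not measured.

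The libraries differed in depth and in cell makeup before any gene was compared. They held between 678337 and 2207534 UMIs over 5000 barcodes each, of which 332, 1049 and 2325 barcodes passed the 200-gene minimum in FVIO-MHT replicates 1, 2 and 3, and 1080, 1462 and 482 in PBS replicates 1, 2 and 3. Clustering without the listed cell cycle genes gave 16 clusters, 15 of which were named from marker genes. FVIO-MHT replicate 1 stood apart: 265 of its 332 cells were neutrophil-like, and none was tumour epithelial-like. A cluster of 1364 cells that carried both haemoglobin and keratin RNA stayed unnamed, and 1249 of its cells came from FVIO-MHT replicate 3. PBS replicates 2 and 3 shared 33 kept barcodes, 27 of them in the same class in both, and these held 16.9% of the UMIs of PBS replicate 3. Other pairs of libraries shared at most 1 kept barcode. The values that rest on these barcodes are given again without them, beside the result or after the tumour cell results.

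Over all cells of a library, replication and mitotic RNA differed more among the FVIO-MHT libraries than between the groups. The 17 replication genes together made up 99.3, 1075 and 1834 UMIs per 1000000 UMIs of the library (CPM) in FVIO-MHT replicates 1, 2 and 3, against 1353, 934 and 1113 CPM in PBS replicates 1, 2 and 3. The 20 mitotic genes other than Hmgb2 made up 66.2, 1557 and 3489 CPM in the FVIO-MHT libraries and 1951, 2410 and 2018 CPM in the PBS libraries. FVIO-MHT replicate 1 was below every other library and FVIO-MHT replicate 3 above every other library in both sums, so the groups overlapped. In a bulk sum of this kind, fewer cells of a dividing type and less RNA per cell cannot be told apart.

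FVIO-MHT replicate 1 held 18 replication UMIs and 12 mitotic UMIs without Hmgb2, and 26 of the 38 genes were at 0 there. A count of 0 in that library allows up to 16.6 CPM, counting error only. None of the 38 genes was at 0 in any of the other 5 libraries. Hmgb2, a DNA-bending chromatin protein that is also abundant in myeloid cells, went the other way. It had 1501, 485 and 933 CPM in the FVIO-MHT libraries, against 471, 629 and 724 CPM in the PBS libraries. Its highest value was in the neutrophil-rich library that had almost no other mitotic RNA, and the groups overlapped. In neutrophil-like cells Hmgb2 had 1755 and 607 CPM in FVIO-MHT replicates 1 and 2, against 537 CPM in PBS replicate 1. Hmgb2 was therefore left out of the mitotic sum wherever the text says so.

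**Figure D1:**
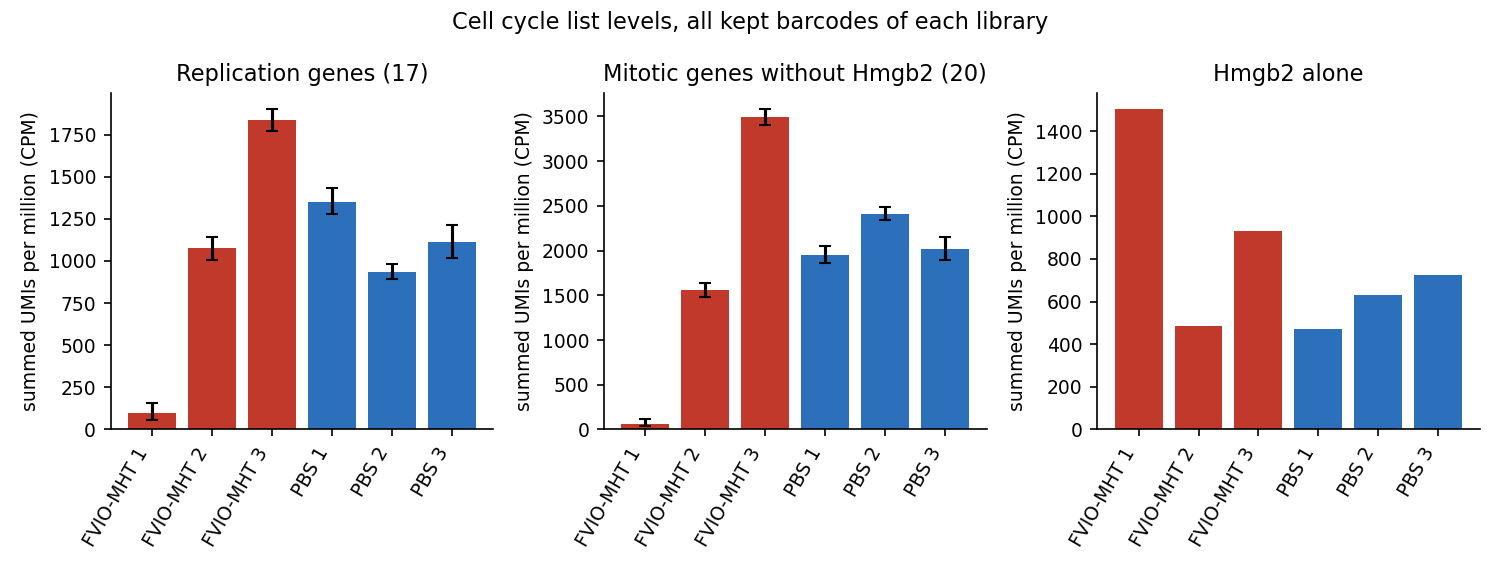
Summed CPM of the 17 replication genes, of the 20 mitotic genes without Hmgb2, and of Hmgb2 alone, over all kept barcodes of each library (FVIO-MHT red, PBS blue). Error bars on both sums are exact Poisson 95% intervals, which cover counting error only. FVIO-MHT replicate 1 is lowest in both sums and highest in Hmgb2.

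Gene by gene, 33 of the 38 genes passed the filter on low counts in the comparison of all cells, 3 FVIO-MHT against 3 PBS libraries. Of these, 0 were called at an adjusted p below 0.05 by edgeR's quasi-likelihood test, against a background of 0% of 8603 genes, and 0 had an unadjusted p below 0.05, against 3.68% of all genes higher and 1.56% lower. DESeq2 called 185 genes (2.15%), none of the 38 among them. The median log2 fold change was 0.35 over 15 replication genes and 0.17 over 18 mitotic genes, beside -0.04 over all genes tested. Without FVIO-MHT replicate 1 those medians were 0.75 and 0.51. No gene of the 33 was higher in every FVIO-MHT than in every PBS library, where 3.17% of all genes were. Below every PBS library in every FVIO-MHT library were 2 genes, Cenpe and Gins2, where 9.46% of all genes were in this position.

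The kinetochore motor Cenpe had 11.0, 129 and 212 CPM in the FVIO-MHT libraries and 234, 382 and 280 CPM in the PBS libraries, a log2 fold change of -1.30 ± 0.69 (SE; edgeR adjusted p = 0.892). Gins2, a subunit of the replicative helicase complex, had 5.52, 14.4 and 27.5 CPM against 28.4, 30.7 and 40.4 CPM in the PBS libraries, a log2 fold change of -0.79 ± 0.48 (SE; edgeR adjusted p = 0.892). Neither passed the test, although the libraries of the groups did not overlap. Without the shared barcodes PBS replicate 3 had 179 CPM of Cenpe and 28.1 CPM of Gins2, so that Cenpe overlapped and Gins2 did not. Cyclin A2 (Ccna2), which drives S phase and the entry into mitosis, had 0, 51.1 and 96.7 CPM in the FVIO-MHT libraries and 29.5, 31.2 and 14.9 CPM in the PBS libraries. Its PBS values lay between those of FVIO-MHT replicate 1 and of the other two FVIO-MHT libraries. The condensin subunit Ncapd2 had 16.6, 37.7 and 81.3 CPM in the FVIO-MHT libraries and 39.7, 32.3 and 25.5 CPM in the PBS libraries, and overlapped likewise. Fitted log2 fold changes were 1.10 ± 0.73 for Ccna2, 0.65 ± 0.47 for Ncapd2 and 1.09 ± 0.70 for Hmgb2 (SE), with edgeR adjusted p-values of 0.898, 0.913 and 0.893.

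The proliferation marker Mki67 had 11.0, 141 and 255 CPM in the FVIO-MHT libraries and 218, 274 and 255 CPM in the PBS libraries. Topoisomerase IIα (Top2a), which untangles sister chromatids, had 0, 326 and 865 CPM in the FVIO-MHT libraries and 594, 615 and 376 CPM in the PBS libraries. Both overlapped between the groups. Pcna had 66.2, 303 and 333 CPM in the FVIO-MHT libraries against 450, 307 and 378 CPM in the PBS libraries. The ribonucleotide reductase subunit Rrm2 had 0, 89.9 and 99.6 CPM in the FVIO-MHT libraries, against 60.2, 31.8 and 63.7 CPM in the PBS libraries. Apart from FVIO-MHT replicate 1, the FVIO-MHT libraries were above all PBS libraries for Rrm2 and not for Pcna. Their log2 fold changes were -0.83 ± 0.70 for Mki67, -0.44 ± 1.13 for Top2a, -0.61 ± 0.53 for Pcna and 0.43 ± 0.75 for Rrm2 (SE; edgeR adjusted p = 0.930, 0.994, 0.933 and 0.987). The helicase subunit Mcm2 had 5.52, 35.5 and 54.9 CPM in the FVIO-MHT libraries, against 48.8, 37.1 and 65.8 CPM in the PBS libraries, a log2 fold change of -0.42 ± 0.51 (SE; edgeR adjusted p = 0.959). Mcm5, of the same complex, had 0, 45.5 and 112 CPM in the FVIO-MHT libraries, against 51.1, 26.9 and 42.5 CPM in the PBS libraries, a log2 fold change of 0.57 ± 0.75 (SE; edgeR adjusted p = 0.966). Both overlapped between the groups.

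Split by cell class, replication RNA was most abundant in the tumour epithelial-like cells, the unnamed haemoglobin and keratin cluster and the lymphoid classes. Mitotic RNA was most abundant in tumour epithelial-like, unnamed, B/plasma-like and skin keratinocyte-like cells. In T and NK-like cells its level varied between libraries. The 4 clusters called tumour epithelial-like met 6 to 9 of 10 tumour epithelial markers. The marker count is not particular to them: cluster 13, of 94 cells, met all 10, was named mammary luminal-like on 5 of 8 markers of that class and its leading genes, and was not counted as tumour. Each class was read in libraries that held 20 or more of its cells, and classes other than tumour epithelial-like, macrophage/monocyte-like and fibroblast-like cells were described without a test. Replication sums in tumour epithelial-like cells were 1579 and 2295 CPM in FVIO-MHT replicates 2 and 3, against 1175, 977 and 1439 CPM in PBS replicates 1, 2 and 3. In the unnamed cluster they were 2382 and 1841 CPM in FVIO-MHT replicates 2 and 3, against 1174 CPM in PBS replicate 2. Neutrophil-like cells were below every tumour epithelial-like value, with 62.7 and 400 CPM in FVIO-MHT replicates 1 and 2, against 465 CPM in PBS replicate 1. Fibroblast-like cells were low as well. They held 24 replication UMIs in 66 cells of FVIO-MHT replicate 2 and 67 in 144 cells of replicate 3. In PBS replicates 2 and 3 they held 13 in 31 cells and 8 in 40 cells.

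Lymphoid classes had replication sums within the range of the tumour cells or, in PBS replicate 1, above it, with a lower ratio of mitotic to replication RNA. T and NK-like cells had a replication sum of 1996 CPM in FVIO-MHT replicate 2, against 2594, 1491 and 1327 CPM in PBS replicates 1, 2 and 3, and B/plasma-like cells, nearly all from PBS replicate 1, had 2403 CPM there. The ratio of mitotic UMIs without Hmgb2 to replication UMIs was 0.54 in T and NK-like cells of FVIO-MHT replicate 2, against 0.86, 1.48 and 0.59 in the 3 PBS libraries. In B/plasma-like cells it was 1.10. In tumour epithelial-like cells it was 1.71 and 1.94 in FVIO-MHT replicates 2 and 3, against 1.72, 2.7 and 1.95 in the PBS libraries. All 5 tumour cell values were above every lymphoid value, 27 mitotic UMIs being the basis of the lowest one, and the groups overlapped within tumour cells. A low ratio was not particular to the lymphoid classes. In macrophage/monocyte-like cells it was 0.56, 0.94 and 1.30 in the FVIO-MHT libraries, against 1.55, 1.85 and 1.03 in the PBS libraries. In neutrophil-like cells it was 0.78 and 0.93 in FVIO-MHT replicates 1 and 2, against 0.46 in PBS replicate 1. Fibroblast-like cells ran from 0.23 to 2.97 and skin keratinocyte-like cells from 1.08 to 2.52. These ratios are a description of classes drawn from the same cells, with no test.

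**Figure D2:**
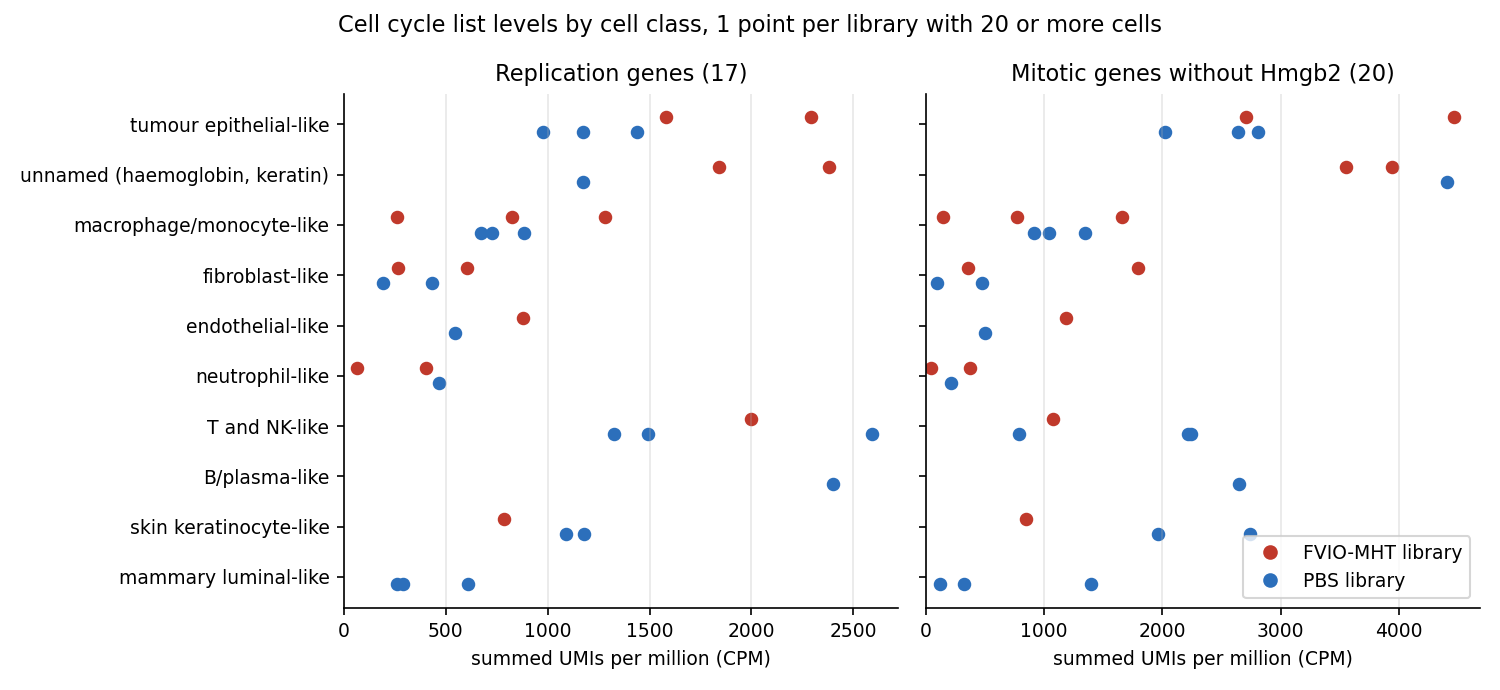
Summed CPM of the replication genes and of the mitotic genes without Hmgb2 in each cell class, 1 point for each library with 20 or more cells of that class (FVIO-MHT red, above PBS blue). FVIO-MHT and PBS points do not overlap for replication genes in tumour epithelial-like cells (1579 and 2295 against 977 to 1439 CPM) and overlap for the mitotic genes.

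Among the stromal and myeloid classes, macrophage/monocyte-like cells had replication sums of 261, 826 and 1279 CPM in FVIO-MHT replicates 1, 2 and 3, against 674, 727 and 886 CPM in PBS replicates 1, 2 and 3. Their mitotic sums without Hmgb2 were 145, 776 and 1657 CPM in the FVIO-MHT libraries and 1044, 1344 and 915 CPM in the PBS libraries. Both sums overlapped between the groups, and both were lowest in FVIO-MHT replicate 1 and highest in FVIO-MHT replicate 3. Fibroblast-like cells had mitotic sums without Hmgb2 of 354 and 1791 CPM in FVIO-MHT replicates 2 and 3, against 99.2 and 475 CPM in PBS replicates 2 and 3. The high fibroblast value was again that of FVIO-MHT replicate 3, which was also the library richest in mitotic RNA among barcodes below the gene minimum, with 3193 CPM of mitotic genes without Hmgb2. The part of RNA from other cells in those barcodes was not tested.

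Individual genes peaked in different classes. Of the 21 mitotic genes, 14 had their highest class mean in the unnamed cluster, 3 in skin keratinocyte-like, 2 in tumour epithelial-like and 2 in B/plasma-like cells. Of the 17 replication genes, 8 peaked in B/plasma-like cells, 5 in the unnamed cluster, 2 in T and NK-like cells and 2 in tumour epithelial-like cells. The B/plasma-like values rest on PBS replicate 1 alone, with 196 replication UMIs in 175 cells. Some peaks were near ties. Pcna had 737 CPM in T and NK-like and 736 CPM in B/plasma-like cells. Mcm2 had 61.8 CPM in tumour epithelial-like and 61.3 CPM in B/plasma-like cells. The order of classes was not tested. Top2a averaged 721 ± 244 CPM in tumour epithelial-like cells (SD, n = 5 libraries), 1025 ± 193 CPM in the unnamed cluster (SD, n = 3), 230 ± 140 CPM in macrophage/monocyte-like cells (SD, n = 6), 83.3 ± 107 CPM in fibroblast-like cells (SD, n = 4) and 43.5 ± 38.2 CPM in neutrophil-like cells (SD, n = 3). Only the order of those with separate ranges of SD can be read, so the tumour and unnamed cells lay above the other three. Pcna averaged 737 ± 253 CPM in T and NK-like cells (SD, n = 4), its highest class. Pcna also acts in DNA repair. Top2a averaged 342 ± 235 CPM in the same T and NK-like cells (SD, n = 4).

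**Figure D3:**
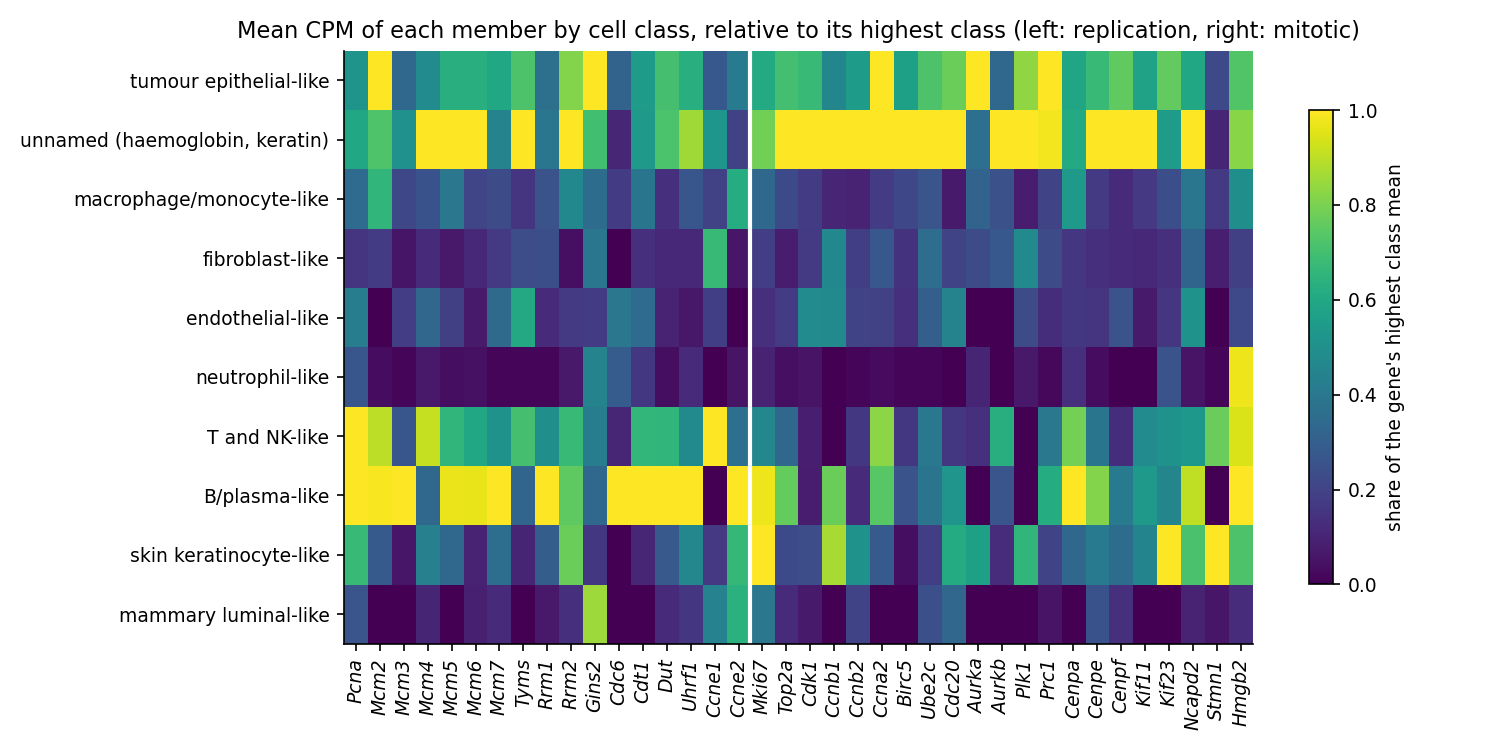
Mean CPM over libraries of each of the 38 genes in each of 10 cell classes, as a share of the gene's highest class mean, from 0 (dark) to 1 (bright). Replication genes are left of the white line and mitotic genes right of it. Hmgb2, in the last column, is the one mitotic gene that is bright in neutrophil-like cells.

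The division into phases was checked within tumour epithelial-like cells. Cells with a Top2a UMI, compared with cells of the same library without one, had a median ratio of 6.26 in the CPM of the other 20 mitotic genes, ranging from 2.26 for Stmn1 to 26.1 for cyclin B1 (Ccnb1). For the 17 replication genes the median ratio was 2.35, ranging from 1.13 for Cdt1 to 4.65 for Rrm2. The mitotic ratio was above 1 in all 5 libraries for 19 of 20 genes and the replication ratio for 11 of 17 genes. Rrm2 was the replication gene closest to the mitotic ones, and Cdt1, which is degraded as S phase starts and licenses origins before it, the farthest. Cells chosen by an Rrm2 UMI instead, in the 4 libraries with 20 or more of them, gave median ratios close to each other, 2.12 for 16 replication genes and 2.04 for 21 mitotic genes. Cells with a Top2a UMI were deeper, with median UMIs of 1428 to 2139 per library against 863 to 1385 in cells without one, and the part of depth was not tested.

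Between the groups, tumour epithelial-like cells had more replication RNA in both FVIO-MHT libraries than in any PBS library. Most of the mitotic genes lay above the PBS libraries in both FVIO-MHT libraries as well. Those that overlapped were the long Cenpf, Mki67, Cenpe and Top2a and the shorter Kif23, Hmgb2, Aurkb and Stmn1. The mitotic sum without Hmgb2 was 2706 and 4462 CPM in FVIO-MHT replicates 2 and 3, against 2021, 2640 and 2807 CPM in PBS replicates 1, 2 and 3, and overlapped. The cells compared numbered 198 and 354 in the FVIO-MHT libraries, against 440, 1055 and 173 in the PBS libraries, and FVIO-MHT replicate 1 had none. Without the barcodes that PBS replicates 2 and 3 shared, the replication sum of PBS replicate 3 was 888 CPM in place of 1439 CPM, and its mitotic sum without Hmgb2 was 1822 CPM in place of 2807 CPM. Without them the mitotic sums no longer overlapped, the highest PBS value being 2625 CPM. This removal acted mainly on 1 library. Over all cells the shared barcodes held 16.9% of the UMIs of PBS replicate 3 and 1.09% of those of PBS replicate 2. The FVIO-MHT libraries kept all 198 and 354 tumour cells. Which library the RNA of these barcodes belongs to was not tested.

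In the fit of 2 FVIO-MHT against 3 PBS libraries, 36 of the 38 genes were tested, all but Cdc6 and Ccne1. Of these, 0 passed an adjusted p of 0.05 in edgeR's quasi-likelihood test, against a background of 0% of 7514 genes. At an unadjusted p below 0.05, 19 of the 36 were higher and 0 lower, against 3.97% of all genes higher and 5.19% lower. DESeq2 called 29 genes (0.386% of those tested) and 0 of the 36. The median log2 fold change was 1.00 over 15 replication genes and 0.86 over 21 mitotic genes, beside 0.02 over all genes tested, and 31 of the 36 were above 0, as were 51.2% of all genes. Both FVIO-MHT libraries were above all 3 PBS libraries for 23 of the 36 genes, 10 of replication and 13 of mitosis, where 17% of all genes were. Without the shared barcodes this count was 25 of 36, beside 18.1% of all genes. In the opposite position, with both FVIO-MHT libraries below all PBS libraries, was 1 of the 36, Gins2, where 9.54% of all genes were. The genes were listed with earlier results of these libraries known, so these counts are not independent evidence of a direction.

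Among the replication genes, the helicase subunits had log2 fold changes from 0.00 for Mcm2 to 1.56 for Mcm5, and none passed the test. Mcm5, at chr8:75109569-75128439 (GRCm38, GENCODE M21, plus strand), had 75.8 and 136 CPM in FVIO-MHT replicates 2 and 3, against 38.4, 29.7 and 37.9 CPM in PBS replicates 1, 2 and 3. Mcm6 had 149 and 206 CPM in the FVIO-MHT libraries, against 52.4, 69.7 and 84.2 CPM in the PBS libraries. In both genes the lower FVIO-MHT library was well clear of the highest PBS library, and the log2 fold changes were 1.56 ± 0.37 for Mcm5 and 1.31 ± 0.34 for Mcm6 (SE; edgeR adjusted p = 0.404 and 0.420). Mcm2, a subunit of the same hexamer, had 54.9 and 67.4 CPM in the FVIO-MHT libraries, against 54.1, 40.0 and 92.6 CPM in the PBS libraries. Its groups overlapped, with a log2 fold change of 0.00 ± 0.36 (SE; edgeR adjusted p = 1.000). Mcm3, Mcm4 and Mcm7 lay between, with log2 fold changes of 1.16, 0.97 and 0.59.

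Of the tested genes that load the helicase and supply nucleotides, Rrm2 and Cdt1 had the highest log2 fold changes. Rrm2 had 160 and 144 CPM in FVIO-MHT replicates 2 and 3, against 54.1, 32.3 and 75.7 CPM in the PBS libraries, a log2 fold change of 1.49 ± 0.38 (SE; edgeR adjusted p = 0.404). Cdt1 had 73.2 and 120 CPM in the FVIO-MHT libraries, against 38.4, 34.2 and 37.9 CPM in the PBS libraries, a log2 fold change of 1.34 ± 0.35 (SE; edgeR adjusted p = 0.423). The FVIO-MHT libraries did not overlap the PBS libraries in either gene, and neither passed the test. Rrm1, the large subunit that pairs with Rrm2, had a log2 fold change of 1.17, and the nucleotide enzymes Tyms and Dut had 0.48 and 0.44. Uhrf1, which carries DNA methylation through replication, had 1.00, and cyclin E2 (Ccne2), on between 3 and 24 UMIs a library, had 1.62. Pcna had 348 and 439 CPM in the FVIO-MHT libraries, against 381, 300 and 442 CPM in the PBS libraries, and Gins2 had a log2 fold change of -0.69. Pcna overlapped between the groups (log2 fold change 0.00 ± 0.31, SE), and Gins2 was lower in both FVIO-MHT libraries than in all 3 PBS libraries.

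Cdc6 and Ccne1, which did not pass the filter on low counts, were also read. Cdc6 had 15.7 and 38.3 CPM in FVIO-MHT replicates 2 and 3, against 6.98, 8.39 and 8.42 CPM in PBS replicates 1, 2 and 3. Ccne1, the other cyclin E, had 10.5 and 17.2 CPM in the FVIO-MHT libraries, against 3.49, 8.39 and 8.42 CPM in the PBS libraries. The FVIO-MHT libraries were above the PBS libraries in both genes, on between 2 and 29 UMIs a library, and no test was made.

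Among the mitotic genes, Ccna2 had the smallest p. It lies at chr3:36564865-36572150 (GRCm38, GENCODE M21, minus strand) and had 99.4 and 139 CPM in FVIO-MHT replicates 2 and 3, against 27.9, 34.9 and 29.5 CPM in PBS replicates 1, 2 and 3. Its log2 fold change was 1.84 ± 0.34 (SE; edgeR adjusted p = 0.386), and the 3 PBS libraries lay close together far below both FVIO-MHT libraries. Ncapd2 had 70.6 and 91.2 CPM in the FVIO-MHT libraries, against 20.9, 32.3 and 29.5 CPM in the PBS libraries, a log2 fold change of 1.45 ± 0.36 (SE; edgeR adjusted p = 0.404). Cenpa, the histone H3 variant that marks centromeres, had 193 and 299 CPM in the FVIO-MHT libraries, against 64.6, 94.9 and 109 CPM in the PBS libraries, a log2 fold change of 1.39 ± 0.36 (SE; edgeR adjusted p = 0.404). Survivin (Birc5), a subunit of the chromosomal passenger complex, had 144 and 390 CPM in the FVIO-MHT libraries, against 82.0, 90.4 and 109 CPM in the PBS libraries. Its log2 fold change was 1.46 ± 0.43 (SE; edgeR adjusted p = 0.460), with FVIO-MHT replicate 3 far above replicate 2.

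Genes of mitotic exit and the mitotic kinases had log2 fold changes from 0.59 to 1.67. The ubiquitin-conjugating enzyme Ube2c and the activator Cdc20, both of the anaphase-promoting complex pathway, had log2 fold changes of 1.66 and 1.08. The kinases Plk1 and Aurka had 1.67 and 1.49, and Aurkb, the kinase partner of Birc5, had 0.59 with groups that overlapped. Cyclin B1 (Ccnb1) had 1.18, cyclin B2 (Ccnb2) 0.59 and their kinase Cdk1 0.67, and all 3 were above the PBS libraries in both FVIO-MHT libraries. The spindle proteins Prc1, Kif11 and Kif23 had 0.86, 0.62 and 0.67. Of these genes, Aurkb and Kif23 overlapped between the groups.

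The genes with fold changes near or below 0 included the usual markers of proliferation. Mki67 had 230 and 304 CPM in FVIO-MHT replicates 2 and 3, against 180, 279 and 316 CPM in PBS replicates 1, 2 and 3, a log2 fold change of -0.03 ± 0.35 (SE; edgeR adjusted p = 0.985). Top2a had 604 and 1148 CPM in the FVIO-MHT libraries, against 616, 684 and 551 CPM in the PBS libraries, a log2 fold change of 0.42 ± 0.35 (SE; edgeR adjusted p = 0.743). In both genes the groups overlapped, and the sign for Mki67 turned positive under several other settings. Cenpe and Cenpf, the large kinetochore proteins, had log2 fold changes of -0.65 and -0.59, with groups that overlapped. Hmgb2 and Stmn1, which destabilises microtubules, had 0.44 and 0.91 and overlapped as well. The difference between Ccna2 and Mki67 in their fold changes was itself not tested.

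**Figure D4:**
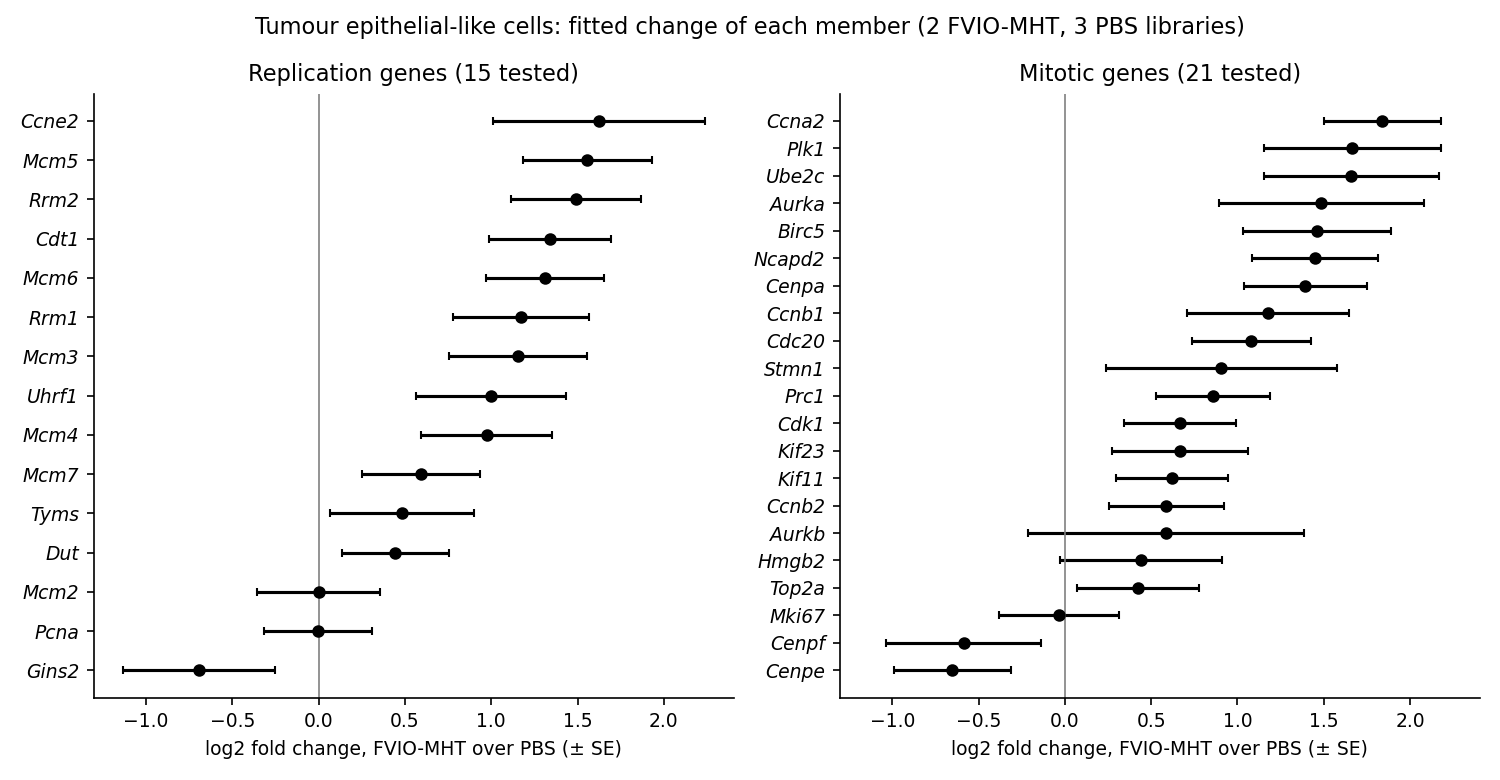
Fitted log2 fold change of each tested gene in tumour epithelial-like cells, FVIO-MHT over PBS, with its standard error, replication genes on the left and mitotic genes on the right, each ordered by size. Values run from -0.69 (Gins2) to 1.62 (Ccne2) and from -0.65 (Cenpe) to 1.84 (Ccna2), and none passed an adjusted p of 0.05.

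The mitotic genes with fold changes below 0, Mki67, Cenpe and Cenpf, had long transcripts. With the longest coding transcript of each gene taken from GENCODE M21, Cenpf (11130 bases), Mki67 (10061 bases), Cenpe (7910 bases) and Top2a (5221 bases) were the 4 mitotic genes over 5000 bases, a length chosen after the values were seen. Their median log2 fold change was -0.31, against 1.08 for the other 17 mitotic genes. Of those 17, Kif23 (3398 bases), Hmgb2 (2628 bases), Aurkb (1950 bases) and Stmn1 (1060 bases) also overlapped between the groups. Hmgb2, at 0.44, was close to Top2a, at 0.42. Across the 21 mitotic genes Spearman's rho between length and log2 fold change was -0.50. Across all 7400 tested genes with a length it was -0.20, with medians of -0.15 over 5000 bases and 0.06 at or below it. Genes of one set of libraries are not independent replicates, so these are descriptions, and the part of transcript length in the mitotic values was not tested.

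The tumour cells of the groups came from different clusters, which cannot be told apart from treatment in the pooled comparison. Cluster 5 held 82.8% of the tumour epithelial-like cells of FVIO-MHT replicate 3 and 21.2% of those of FVIO-MHT replicate 2, against 4.77%, 1.42% and 2.89% in PBS replicates 1, 2 and 3. Cluster 12, led by Hes1 and by the heat-shock genes Hspa1b and Dnajb1, held 5.56% and 1.41% of the cells of the FVIO-MHT libraries, against 6.59%, 77.5% and 70.5% in the PBS libraries. Cluster 6, led by Cxcl5 and Csf3, held 57.1% and 5.65% in the FVIO-MHT libraries, against 72.3%, 6.35% and 14.5% in the PBS libraries. Birc5 and Prc1 were among the leading genes of cluster 5, although neither they nor the other listed cell cycle genes were used to draw it. Genes outside the lists, those tied to the cell cycle among them, were not left out of the clustering.

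Within single clusters the replication sums of the groups stood in different orders. In cluster 5 the replication sum was 2238 and 2355 CPM in FVIO-MHT replicates 2 and 3, against 2885 CPM in PBS replicate 1, the one PBS library with 20 cells there. In cluster 6 it was 1195 and 1546 CPM in the FVIO-MHT libraries, against 1068, 785 and 1658 CPM in the PBS libraries, so the groups overlapped. Without the shared barcodes the PBS replicates 2 and 3 had 746 and 958 CPM in cluster 6, and the groups no longer overlapped there. In cluster 7 it was 1098 and 1670 CPM in the FVIO-MHT libraries, against 707, 895 and 619 CPM in the PBS libraries, with no overlap. The cluster 7 sums rest on 24 and 33 UMIs in 32 and 36 cells, against 27, 79 and 7 UMIs in 72, 155 and 21 cells. In cluster 6 FVIO-MHT replicate 3 had 48 replication UMIs in 20 cells, and PBS replicate 3 had 67 in 25 cells. Sums on so few UMIs carry a wide counting error. Of the 36 genes, 5 were above all PBS libraries in both FVIO-MHT libraries within cluster 6 and 8 within cluster 7, where 11% and 9.77% of all genes were. Below all PBS libraries were 3 of the 36 within cluster 6 and 1 within cluster 7, where 8.03% and 7.68% of all genes were. The edgeR fit of cluster 6 alone tested 16 of the 38 genes and called none of them. In it 8 of the 16 had a log2 fold change above 0, as did 51.7% of all genes, and at an unadjusted p below 0.05 were 1 higher and 2 lower, against 0.947% of all genes higher and 1.44% lower. The mitotic sum without Hmgb2 overlapped in clusters 6 and 7. In cluster 5 it was 4755 and 4640 CPM in the FVIO-MHT libraries, against 3922 CPM in PBS replicate 1.

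**Figure D5:**
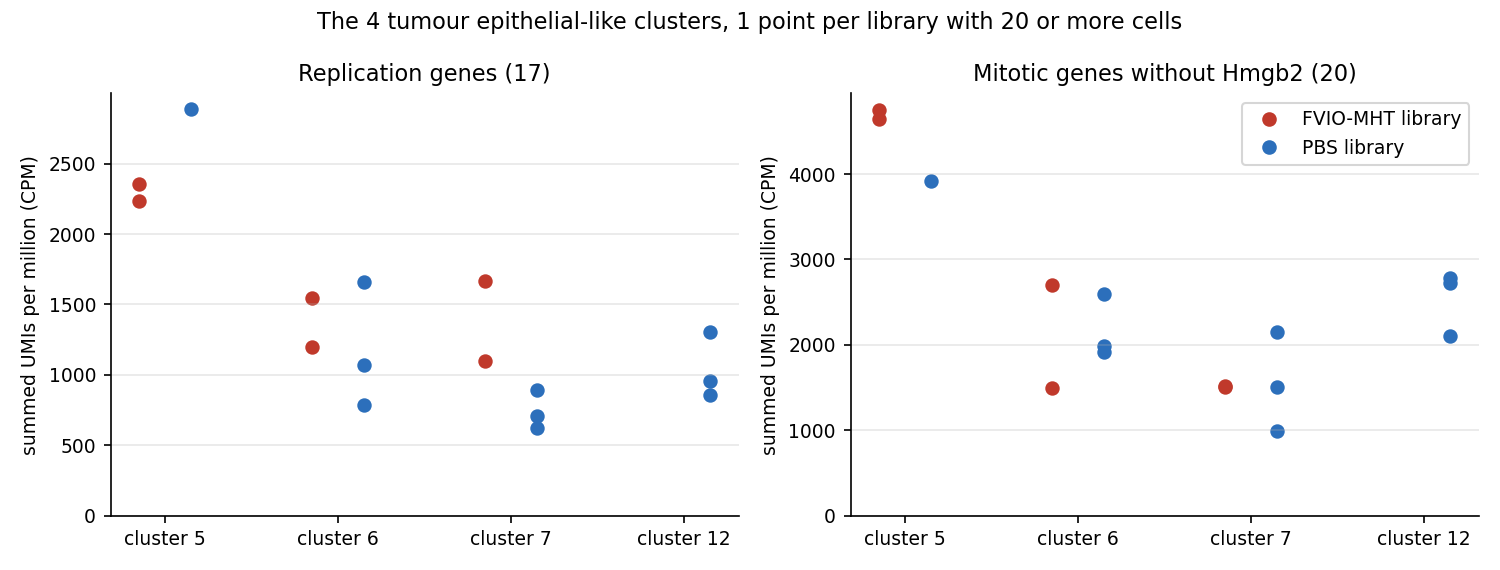
Summed CPM of the replication genes and of the mitotic genes without Hmgb2 in the 4 tumour epithelial-like clusters, 1 point for each library with 20 or more cells of that cluster (FVIO-MHT red, left of PBS blue). No FVIO-MHT library had 20 cells in cluster 12, and cluster 5 is high in both groups, 2238 to 2885 CPM for replication.

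Adding the unnamed haemoglobin and keratin cluster to the tumour cells left the counts near those given, with 23 of 36 genes above all PBS libraries in both FVIO-MHT libraries, where 17.4% of all genes were, and 2 of 36 below them, where 9.6% were. Leaving out FVIO-MHT replicate 2, edgeR called 228 genes (2.66% of 8558), among them 11 of 38 members: Birc5, Ccna2, Cdt1, Cenpa, Mcm3, Mcm5, Mcm6, Ncapd2, Plk1, Rrm1 and Ube2c. That fit has 1 FVIO-MHT library, which is assumed to vary like the PBS libraries. Leaving out FVIO-MHT replicate 3, 6 of the 34 members tested were higher and 0 lower at an unadjusted p below 0.05, against 1.94% of all genes higher and 3.85% lower, and the median log2 fold changes were 0.38 for replication and 0.44 for mitosis. Without the filter on low counts 6 members were called: Birc5, Ccna2, Cenpa, Mcm5, Rrm2 and Ube2c, beside 0.975% of all genes.

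At a fixed depth, the share of tumour cells with a UMI of the lists was higher in both FVIO-MHT libraries than in any PBS library. Only in FVIO-MHT replicate 3 was it clear of all PBS libraries beyond counting error. Thinned to 300 UMIs per cell, 29.1% and 40.6% of tumour epithelial-like cells had a replication UMI in FVIO-MHT replicates 2 and 3, against 21.6%, 18.4% and 25.3% in PBS replicates 1, 2 and 3. For mitotic genes without Hmgb2 the shares were 30.1% and 52.8% in the FVIO-MHT libraries, against 21.3%, 20.6% and 24.1% in the PBS libraries. Both FVIO-MHT libraries were above all PBS libraries in each share. The 95% intervals, which cover counting error only, overlapped between FVIO-MHT replicate 2 and PBS replicates 1 and 3 in both shares. For replication they were 22.8% to 36.0% in FVIO-MHT replicate 2, against 17.7% to 25.8% and 19.0% to 32.5% in those PBS libraries. For mitosis they were 23.8% to 37.0%, against 17.5% to 25.6% and 17.9% to 31.3%. The intervals of FVIO-MHT replicate 3 began at 35.4% and 47.3%, above those of all PBS libraries. In neutrophil-like cells, whose mature form has left the cell cycle, the thinned mitotic shares were 2.28% and 9.27% in FVIO-MHT replicates 1 and 2, against 10.0% in PBS replicate 1. Before thinning, 51.0% and 81.6% of tumour epithelial-like cells had a mitotic UMI in the FVIO-MHT libraries, against 35.7%, 36.3% and 44.5% in the PBS libraries, at median depths of 1508 and 1628 UMIs against 1009, 1035 and 954 UMIs. At 300 UMIs, 12.8% and 19.4% of tumour cells had both kinds of UMI in the FVIO-MHT libraries, against 7.91%, 5.39% and 8.24% in the PBS libraries.

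Leaving out the shared barcodes lowered both sums of PBS replicate 3 over all cells and in tumour epithelial-like cells, and left those of PBS replicate 2 nearly as they were. In tumour epithelial-like cells 25 of the 36 genes were then above all PBS libraries in both FVIO-MHT libraries, and 1 below them, where 9.22% of all genes were. The edgeR fit called none, with 20 of 35 genes higher and 0 lower at an unadjusted p below 0.05, against 4.17% of all genes higher and 5.27% lower. The median log2 fold changes were 1.24 for replication and 0.93 for mitosis. Mcm2, Uhrf1 and Kif23 no longer overlapped between the groups, and Mcm7, at 99.4 and 144 CPM in FVIO-MHT replicates 2 and 3 against 103 CPM in PBS replicate 3, did. The state of the other 34 of the 38 genes was as before.

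The genes with the smallest p in tumour cells were also above all PBS libraries in both FVIO-MHT libraries without those barcodes. This is not a separate check, since the genes were picked in the same libraries. Leaving the barcodes out kept their FVIO-MHT values and lowered PBS replicate 3 for all of them but Ccna2. PBS replicate 3 then had 17.1 CPM of Mcm5, 62.6 CPM of Mcm6, 45.6 CPM of Rrm2 and 22.8 CPM of Cdt1, with log2 fold changes of 1.74, 1.43, 1.73 and 1.46. It had 34.2 CPM of Ccna2, 5.69 CPM of Ncapd2, 68.3 CPM of Cenpa and 74.0 CPM of Birc5, with log2 fold changes of 1.81, 1.69, 1.57 and 1.61. Among the genes near 0, Mcm2 had 45.6 CPM, Pcna 239 CPM, Mki67 228 CPM and Top2a 444 CPM in PBS replicate 3, with log2 fold changes of 0.33, 0.26, 0.13 and 0.49. None of these genes passed the test in either fit.

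Over all cells, PBS replicate 3 had a replication sum of 816 CPM and a mitotic sum without Hmgb2 of 1365 CPM once the shared barcodes were left out, and the groups overlapped in both sums as before. In its macrophage/monocyte-like cells the sums were 822 and 838 CPM, and its fibroblast-like mitotic sum was 548 CPM. The thinned shares of its tumour cells were 22.6% for replication and 20.5% for mitosis, still below both FVIO-MHT libraries, and 6.85% had both kinds of UMI. The ratio of mitotic to replication UMIs in its tumour cells was 2.05. Across the libraries, cells with a Top2a UMI had median ratios of 2.12 for replication and 6.01 for mitotic genes. No neutrophil-like, T and NK-like or B/plasma-like value rested on a shared barcode.

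In macrophage/monocyte-like cells 5 of the 38 genes passed the filter on low counts, and in fibroblast-like cells none did. Of those 5, 0 were called, against 0% of 2109 genes, and 0 had an unadjusted p below 0.05, against 2.18% of all genes higher and 2.13% lower. Mki67 had 0, 71.9 and 158 CPM in FVIO-MHT replicates 1, 2 and 3, against 185, 328 and 116 CPM in PBS replicates 1, 2 and 3, a log2 fold change of -1.14 ± 0.65 (SE; edgeR adjusted p = 0.982). Top2a had 0, 151 and 383 CPM in the FVIO-MHT libraries and 354, 244 and 247 CPM in the PBS libraries. The groups overlapped in both genes, and 35 and 85 UMIs of FVIO-MHT replicate 3 made up most of the FVIO-MHT counts of Mki67 and Top2a. Cenpa, Hmgb2 and Pcna had log2 fold changes of 0.19, 0.10 and -0.01, each smaller than its standard error. Fibroblast-like cells had 2 genes called of 1307 (0.153%), both lower and neither a cell cycle gene, and DESeq2 called 4.

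Other genes of the same machinery, outside the 38, were read in tumour epithelial-like cells, and none was called by edgeR, with adjusted p-values from 0.386 upward. Over all genes tested there, 51.2% had a log2 fold change above 0, and 3.97% were higher and 5.19% lower at an unadjusted p below 0.05. Of 28 other mitotic genes tested, 24 had log2 fold changes above 0, with 7 higher and 0 lower at an unadjusted p below 0.05 and a median of 0.60. Of 15 other replication genes, 13 were above 0, with 3 higher and 0 lower and a median of 0.60. The smallest p-values were those of Cenpw, Cdca8 and Ect2 (1.31, 1.15 and 1.07) and of Tk1, Gmnn and Lig1 (1.06, 1.17 and 0.81). Cdca8 is another subunit of the chromosomal passenger complex, Ect2 starts cytokinesis, thymidine kinase Tk1 supplies thymidylate and geminin (Gmnn) binds and blocks Cdt1. All 5 histone genes tested were above 0, 4 of them at an unadjusted p below 0.05, with Hist1h1e at 1.89, Hist1h2ae at 1.81 and Hist1h1b at 2.19.

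The regulators upstream differed among themselves, and their counts stand against the same shares of all genes, 51.2% above 0, 3.97% higher and 5.19% lower. All 7 tested genes of the E2F and MuvB regulators were above 0, with a median log2 fold change of 0.71, and the E2F partner Tfdp1, at 0.90, was the 1 gene at an unadjusted p below 0.05. Of 13 genes of the G1 cyclins, their kinases and inhibitors, 1 was higher and 3 lower at that level. Cdk2, the kinase of cyclins E and A, had a log2 fold change of 1.27 ± 0.43, and Myc, a transcription factor of growth, had -2.30 ± 0.50 (SE; edgeR adjusted p = 0.489 and 0.386). The inhibitor Cdkn1b had -0.83. Myc was also among the leading genes of cluster 12, which held most tumour cells of PBS replicates 2 and 3 and few of the FVIO-MHT libraries. Over all cells the other mitotic and other replication genes had medians of 0.04 and 0.03, with 0 of 30 and 0 of 14 genes at an unadjusted p below 0.05.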

How the data were processed

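The authors' deposited matrices for 6 Drop-seq libraries (3 FVIO-MHT, 3 PBS) hold UMI counts, unnormalised. The submitters' processing notes name STAR 2.7.2b and mm10, and no source used here names the counter, its annotation or strand setting, or how barcodes were chosen. Of 27998 rows, 65 repeats of a symbol held identical counts and were dropped.

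Barcodes with 200 or more detected genes were kept (6730). Log-normalised counts of 2000 variable genes, without the cell cycle lists, gave 30 principal components and Leiden clusters at resolution 1 (scanpy 1.11.5), named by markers under a rule settled after the leading genes were seen. Scrublet marked 39 barcodes (0.579%), which were kept. UMIs were summed per library and class of 20 or more cells. Sums were tested with edgeR 4.0.16 (quasi-likelihood, TMM, filterByExpr, Benjamini-Hochberg over all genes tested), with DESeq2 1.42.0 as an alternative. The edgeR test was checked on simulated counts without differences in cell makeup, so that check does not cover libraries as unlike as these. CPM are per 1000000 UMIs of the same library and class. Drop-seq counts 1 tag per molecule, so levels were not divided by length, and levels of different genes were not compared.

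The 38 genes and the pathway lists were chosen with earlier results of these data known. Described with library values and fold changes, over all cells and in tumour epithelial-like cells, were the 4 genes of each list with the smallest p. Mki67, Top2a, Pcna and Rrm2 were added in both. The labels do not say whether same-numbered libraries are paired, and the fits reported did not pair them. Correlations were 0.21, 0.01 and -0.11 for same-numbered libraries and from -0.35 to 0.42 for the others. With so few libraries of unlike cell makeup, these values cannot decide whether pairs exist. Intervals and floors cover counting error only.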

Additional observations from a re-analysis of the deposited data

Results flagged for a closer look

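The unnamed cluster that carried haemoglobin and keratin RNA had no comparison of its own, although its cells are part of the comparison of all cells and of one added tumour setting. There the replication sum averaged 2112 CPM over FVIO-MHT replicates 2 and 3, with 2382 and 1841 CPM in the single libraries, against 1174 CPM in PBS replicate 2. The exact Poisson 95% intervals were 1822 to 3060 and 1731 to 1957 CPM in the FVIO-MHT libraries and 671 to 1906 CPM in PBS replicate 2, so the interval of PBS replicate 2, on 16 UMIs from 34 cells, overlapped both. The cluster held 56 and 1249 cells in those FVIO-MHT libraries. Without the shared barcodes PBS replicate 2 had 1032 CPM there, on 31 cells.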

How the results depend on the processing

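Counts of genes past an adjusted p of 0.05 moved with the filter, the tool and the library left out. With DESeq2 they were 185 over all cells, 29 in tumour epithelial-like, 2 in macrophage/monocyte-like and 4 in fibroblast-like cells, and without a filter on low counts 2, 145, 23 and 15, beside 0, 0, 0 and 2 in the fits reported. The fit with a replicate block gave 25, 1 and 5 in the 3 classes, none of the 38 genes among them, and changed no other count. In fibroblast-like cells the count was 1 with library totals only, and 0 at Leiden resolution 2, with cell cycle genes kept in the clustering and without Scrublet doublets. Leaving out 1 library at a time gave 0 to 228 in tumour epithelial-like cells (228 without FVIO-MHT replicate 2, 2 without PBS replicate 1), 0 to 2 in macrophage/monocyte-like cells and 4 to 27 in fibroblast-like cells. A lone library is then assumed to vary like the other group. The cause of these moves was not tested.

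List levels as log2 differences, FVIO-MHT minus PBS, kept within 1 SD of the libraries except in 3 cases. Over all cells the mitotic difference of -0.17 became -1.56 without Stmn1 and Hmgb2, since Hmgb2 is 272 of the 284 mitotic UMIs of FVIO-MHT replicate 1. In tumour epithelial-like cells the replication difference of 0.69 was 0.28, and the mitotic difference of 0.50 was -0.17, within cluster 6 alone, a setting added after the data were seen, as were cluster 7 alone, the haemoglobin and keratin cluster and the shared barcodes. A difference within 1 SD could still change sign. Leaving out 1 library, it ran from -1.78 to 0.33 for replication and from -0.61 to 0.14 for mitosis over all cells. The replication difference ran from -0.71 to 0.44 in macrophage/monocyte-like and from -0.11 to 1.08 in fibroblast-like cells. In tumour epithelial-like cells the ranges were 0.42 to 0.96 for replication and 0.12 to 0.88 for mitosis.

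Single genes with small fold changes changed sign. In tumour epithelial-like cells Mki67 was at 0.038 with cell cycle genes kept in the clustering, 0.063 with library totals only, 0.13 without shared barcodes and -0.30 to 0.19 leaving out 1 library. Pcna was at 0.13 at Leiden resolution 2, 0.086 with library totals only, 0.0043 without Scrublet doublets, 0.26 without shared barcodes and -0.23 to 0.20 leaving out 1 library. Top2a was at -0.13 within cluster 6 and -0.18 to 0.84 leaving out 1 library. In macrophage/monocyte-like cells Cenpa was at -0.026 with the block and -0.070 to 0.55 leaving out 1 library. Hmgb2 was at -0.048 at Leiden resolution 2, -0.054 with a 400-gene minimum, -0.069 with the block and -0.36 to 0.51 leaving out 1 library. Pcna was at 0.14 at Leiden resolution 2, 0.22 with a 400-gene minimum, 0.027 without shared barcodes and -0.21 to 0.14 leaving out 1 library. Over all cells Mcm5 ran from -0.34 to 0.99 and Top2a from -1.61 to 0.15, by the library left out.

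Depth limits the classes: with 5 genes tested in macrophage/monocyte-like cells and none in fibroblast-like cells, differences in the other genes were not detectable there.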
